A study of Arabidopsis thaliana with 6 samples.

Results

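The autophagy machinery of Arabidopsis thaliana is described here by 38 genes, chosen by locus from the 33602 genes of the count table. The genes are ATG1A to ATG1C, ATG2, ATG3, ATG4A and ATG4B, ATG5, ATG6, ATG7, ATG8A to ATG8I, ATG9, ATG10, ATG11, ATG12A and ATG12B, ATG13A and ATG13B, ATG16L, ATG18A to ATG18H, ATG101, NBR1 and VPS34. The list follows gene names and has no threshold on measured values, though it was drawn up with earlier results of these data known, and 37 of the 38 had enough counts to be tested. The cells came from the floral abscission zone at flower stage 16. Plants of both groups carried proQRT2::nlsGFP-GUS, a nuclear fluorescent reporter under the promoter of QRT2, which encodes a polygalacturonase. Residuum cells (REC, which stay on the receptacle) gave 3 libraries and secession cells (SEC, which leave with the separated floral organs) gave 3. Both were sorted by fluorescence, so they are cells in which that promoter was active enough to pass the gate, and RNA was taken from protoplasts and amplified. No treatment separates the groups. The comparison asks how gene expression differs between the cells that stay and those that are shed.

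Autophagy carries cytoplasm, organelles and protein aggregates to the vacuole inside newly built membrane vesicles. The ATG1 kinase complex starts the process, a lipid kinase complex around VPS34 and ATG6 marks the growing membrane, and ATG9, ATG2 and ATG18 proteins bring lipid to it. The small ubiquitin-like protein ATG8 is trimmed by the protease ATG4, activated by ATG7, passed to ATG3 and joined to a membrane lipid with the help of the ATG12-ATG5-ATG16 complex, and cargo receptors such as NBR1 then bind it. In plants the pathway is known for recycling nutrients under starvation and in senescing organs.

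ATG8 is joined to the membrane through a glycine that ATG4 must first uncover in most members of the family. The ends of the 9 ATG8 coding sequences are shown because the members differ at this point and the largest change within the family fell on one of the 2 that end on the glycine. Each line gives the last 36 coding bases including the stop codon, 5′ to 3′ on the coding strand, from RefSeq's annotation of TAIR10.1, with the codon of that glycine in capitals.
ATG8A: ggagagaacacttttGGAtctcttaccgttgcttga
ATG8B: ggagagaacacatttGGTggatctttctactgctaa
ATG8C: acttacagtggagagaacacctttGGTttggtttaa
ATG8D: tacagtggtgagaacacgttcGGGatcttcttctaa
ATG8E: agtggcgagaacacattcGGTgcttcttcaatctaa
ATG8F: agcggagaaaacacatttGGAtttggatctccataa
ATG8G: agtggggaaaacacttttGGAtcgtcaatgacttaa
ATG8H: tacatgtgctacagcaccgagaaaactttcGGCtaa
ATG8I: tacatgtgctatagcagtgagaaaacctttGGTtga
Between 2 and 5 codons follow the glycine in ATG8A to ATG8G, and 0 follow it in ATG8H and ATG8I, whose coding sequences end on it. For ATG8C the end shown is that of 1 of its 2 annotated models. The stretches shown for ATG8H and ATG8I are on TAIR10.1 at chr3:1955219-1955254 and chr3:5274075-5274110, both on the minus strand.

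Most autophagy genes were higher in SEC. Of the 37 tested members, 30 were higher, 1 was lower and 6 were not called (edgeR quasi-likelihood test, adjusted p under 0.05), so 81.1% of the members were called higher against 28.9% of the 17246 genes tested. The share called lower was 2.7% against 31.9%, and the share called in either direction was 83.8% against 60.8%. In 27 members the rise was at least 2-fold, against 25.7% of all genes, and in 1, ATG10, the fall was at least 2-fold, against 29.8%. The median log2 fold change (SEC minus REC, also given as the log2 difference) was 1.52 over the tested members and -0.07 over all tested genes. Reads assigned to the 38 genes made up 0.218%, 0.235% and 0.255% of gene counts in REC replicates 1, 2 and 3, and 0.782%, 0.649% and 0.63% in SEC replicates 1, 2 and 3. This share is scaled by the total gene counts of each library alone. All SEC values lay above all REC values in 30 tested members, against 34.6% of all genes, and below them in 2, against 36.9%. Groups that did not overlap in either direction were thus found in 32 members, against 71.5% of all genes. In bulk RNA a difference in the kinds of cell collected and a difference in RNA per cell cannot be told apart.

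**Figure D1:**
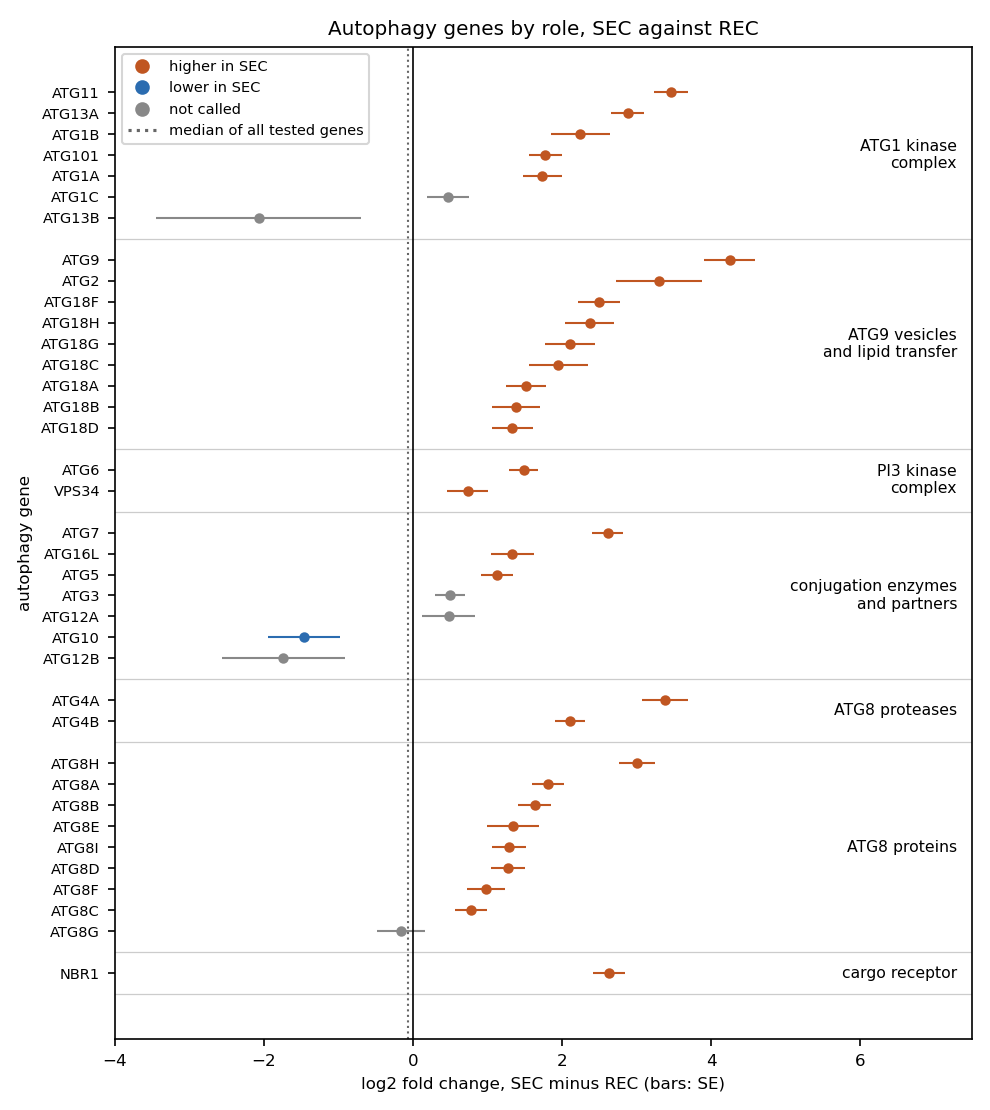
The x axis is the log2 fold change of SEC minus REC with its standard error, and each point is 1 of the 37 tested autophagy genes, grouped by role and coloured by the edgeR call at an adjusted p of 0.05. Points range from ATG13B at -2.07 to ATG9 at 4.25, and the dotted line marks the median of all tested genes at -0.07.

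The libraries held between 13222538 and 17192864 counts in genes. Levels below are CPM, counts relative to the TMM-scaled library size, given for replicates 1, 2 and 3 in that order, and SEC against REC was tested in 1 fit over all genes. With library size alone in place of TMM factors the median of all genes moved from -0.07 to -0.61, and the share of calls that were higher in SEC from 47.5% to 33.7%. Of the members, 26 were then higher, against 20.4% of all genes, and 2 were lower, against 40.2%. The abscission zone markers ADPG2, HAE, IDA and QRT2 rose in SEC while HSL2 fell. Of all tested genes 28.9% were higher and 31.9% lower. The 5 markers summed to 208 to 508 CPM in REC against 7041 to 9058 CPM in SEC. QRT2, whose promoter drove the sorted reporter, was at 23.4, 22.6 and 79.6 CPM in REC and 1552, 1748 and 1848 CPM in SEC. REC replicate 3 stood nearer to SEC than the other REC libraries in all 5 of these markers, with ADPG2 at 0.784, 1.66 and 27.8 CPM in REC and HAE at 122, 131 and 354 CPM. Without REC replicate 3 the count of members was the same, 30 higher and 1 lower. Of 4 mesophyll markers all 4 were lower in SEC (against 31.9% of all tested genes), with sums of 815 to 1680 CPM in REC and 5.85 to 12.2 CPM in SEC. Of 6 markers of stress and protoplasting 5 were higher in SEC (against 28.9% of all tested genes), and the list summed to 275 to 424 CPM in REC and 1946 to 2872 CPM in SEC. Guard cell, xylem and anther markers summed to at most 2.29 CPM in any library, with the xylem genes XCP2 and VND7 and the tapetum gene A9 at 0 in all. The 3 phloem markers summed to 1.57, 17.6 and 3.29 CPM in REC and 0.205 to 2.32 CPM in SEC, and the 2 that could be tested were not called. Of 4 epidermis markers 3 were lower in SEC (against 31.9% of all tested genes), with sums of 33.2 to 53.4 CPM in REC and 0 to 4.35 CPM in SEC and PDF1 at 0 in all SEC libraries. The stress markers thus differed in the direction of most autophagy genes and the mesophyll and epidermis markers in the opposite one, and their part in the differences was not tested.

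The ATG1 kinase complex was higher in 5 of its 7 members, against 28.9% of all tested genes. ATG11, a scaffold that links the kinase to other parts of the machinery (AT4G30790; chromosome 4, 14993086 to 14997785, minus strand), was at 26.7, 27.9 and 21.6 CPM in REC and 302, 239 and 298 CPM in SEC. The groups stood far apart, with a log2 difference of 3.46 ± 0.22 (SE; edgeR adjusted p = 1.73e-05). ATG13A, a regulatory subunit that binds the kinase (AT3G49590; chromosome 3, 18377479 to 18380284, plus strand), rose from 54.5, 61.4 and 60.5 to 429, 353 and 518 CPM. Its log2 difference was 2.88 ± 0.22 (SE; edgeR adjusted p = 3.06e-05). ATG101, which partners ATG13, was at 60.0, 46.9 and 51.3 CPM in REC and 220, 151 and 171 CPM in SEC, 3.42-fold higher (edgeR adjusted p = 0.000292).

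The catalytic subunits of that complex did not move alike. ATG1A was at 9.78, 12.8 and 13.8 CPM in REC and 41.9, 40.5 and 38.6 CPM in SEC, a log2 difference of 1.74 ± 0.26 (SE; edgeR adjusted p = 0.000674). ATG1B was at 7.72, 18.2 and 9.88 CPM in REC and 56.0, 40.5 and 73.6 CPM in SEC, a log2 difference of 2.24 ± 0.40 (SE; edgeR adjusted p = 0.0016). ATG1C was not called, with 26.1, 22.7 and 20.1 CPM against 32.0, 23.7 and 39.9 CPM (log2 0.47 ± 0.28, SE; edgeR adjusted p = 0.178), and its libraries overlapped. Per kilobase of exon, ATG1C made up 43.0% ± 8.83 (SD, n = 3) of the ATG1 transcripts in REC and 20.5% ± 1.97 (SD, n = 3) in SEC. ATG13B, the second ATG13 gene, had 0, 181 and 97 counts in REC and 15, 20 and 11 in SEC and was not called (log2 -2.07 ± 1.38, SE; edgeR adjusted p = 0.222). Without REC replicate 1, the library at 0, its log2 fold change was -2.65 and it was called lower (edgeR adjusted p = 0.0089).

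All 9 tested members of the ATG9, ATG2 and ATG18 group were higher in SEC, against 28.9% of all tested genes. ATG9, a membrane protein of the vesicles that seed the new membrane (AT2G31260; chromosome 2, 13322021 to 13327400, minus strand), had the largest fold change of the tested members. It was at 10.9, 17.8 and 10.3 CPM in REC and 205, 204 and 336 CPM in SEC, a log2 difference of 4.25 ± 0.34 (SE; edgeR adjusted p = 3.54e-05), or 19.1-fold. ATG2, a lipid transfer protein (AT3G19190; chromosome 3, 6639711 to 6648857, plus strand), was at 2.72, 15.7 and 8.82 CPM in REC and 86.2, 67.3 and 116 CPM in SEC. Its REC libraries differed from one another more than those of ATG9 did, and its log2 difference of 3.30 ± 0.58 (SE; edgeR adjusted p = 0.00155) was 3.95 without REC replicate 2. 

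The ATG18 proteins bind the lipid made by VPS34 and hold ATG2 on the membrane. ATG18F was at 62.0, 63.7 and 36.9 CPM in REC and 305, 254 and 358 CPM in SEC, a log2 difference of 2.50 ± 0.28 (SE; edgeR adjusted p = 0.000157). ATG18H was at 43.7, 81.1 and 99.9 CPM in REC and 333, 363 and 467 CPM in SEC (log2 2.37 ± 0.33, SE; edgeR adjusted p = 0.000471). In both genes the lowest SEC library was above the highest REC library by a wide margin. ATG18G rose from 14.5, 21.9 and 28.2 to 90.3, 65.6 and 123 CPM, and ATG18C from 4.89, 7.29 and 9.76 to 23.0, 22.0 and 39.9 CPM. ATG18A went from 43.3, 68.7 and 58.8 to 176, 194 and 118 CPM. ATG18B and ATG18D, which were at no more than 20.4 and 14.3 CPM in REC, were at 40.4 to 47.5 and 27.4 to 37.3 CPM in SEC. The log2 fold changes of these last genes lay between 1.33 for ATG18D and 2.11 for ATG18G, with edgeR adjusted p from 0.000952 for ATG18G to 0.00596 for ATG18B. ATG18E was not tested. It had 31 counts in REC replicate 3 and 0 in every other library, and 0 counts over the SEC libraries allow up to 0.0818 CPM (3 counts over the group, counting error only). Summed per kilobase, the ATG18 family was at 95.9 ± 18.9 in REC and 379 ± 30.1 CPM per kb in SEC (SD, n = 3).

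**Figure D2:**
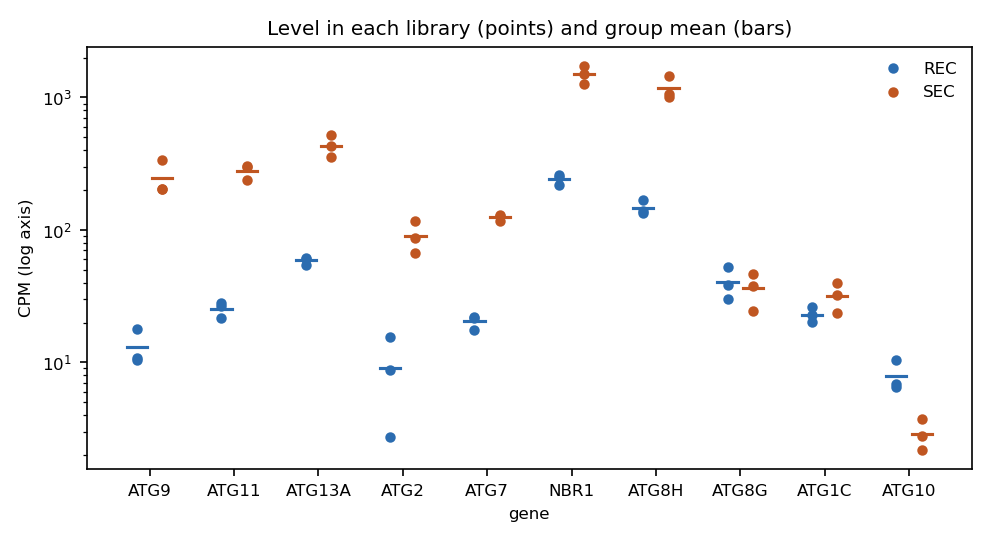
The y axis is the level in CPM on a log scale for 10 autophagy genes, with each point 1 library and each bar the mean of 3. The SEC points of ATG9, ATG11, ATG13A, ATG2, ATG7, NBR1 and ATG8H lie above all their REC points, those of ATG8G and ATG1C overlap them, and those of ATG10 lie below.

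Both lipid kinase subunits were called higher, against 28.9% of all tested genes. ATG6, the plant Beclin (AT3G61710; chromosome 3, 22839315 to 22842432, minus strand), was at 35.5, 37.6 and 45.5 CPM in REC and 106, 114 and 112 CPM in SEC, a log2 difference of 1.49 ± 0.20 (SE; edgeR adjusted p = 0.00038). VPS34, the catalytic subunit, was at 37.2, 36.4 and 59.2 CPM in REC and 88.0, 57.4 and 76.0 CPM in SEC. Its groups overlapped, and its call (log2 0.74 ± 0.28, SE; edgeR adjusted p = 0.047) was lost in 11 of 15 alternatives, with adjusted p from 0.00955 to 0.554, among them each library left out except REC replicate 3.

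Among the conjugation genes the E1 enzyme ATG7, which serves both ubiquitin-like systems, rose the most. ATG7 (AT5G45900; chromosome 5, 18615222 to 18618560, plus strand) was at 17.6, 21.8 and 21.9 CPM in REC and 130, 118 and 128 CPM in SEC, a log2 difference of 2.61 ± 0.21 (SE; edgeR adjusted p = 3.28e-05). Replicates of ATG7 lay close together in both groups. ATG16L, which places the complex on the membrane, went from 48.7, 23.1 and 34.1 to 85.7, 88.6 and 92.9 CPM (log2 1.33 ± 0.29, SE; edgeR adjusted p = 0.00419), and ATG5, the acceptor of ATG12, from 61.1, 45.8 and 53.9 to 134, 96.7 and 121 CPM (log2 1.13 ± 0.22, SE; edgeR adjusted p = 0.00259). 

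Neither E2 enzyme and neither ATG12 gene was called higher. ATG3, the E2 enzyme of ATG8, was at 108, 107 and 110 CPM in REC and 182, 146 and 130 CPM in SEC and missed the threshold (log2 0.50 ± 0.20, SE; edgeR adjusted p = 0.0575). It was called higher without SEC replicate 3 (edgeR adjusted p = 0.0452), by DESeq2 (adjusted p = 0.0474) and by limma voom (adjusted p = 0.0358), and its adjusted p ranged up to 0.839 with library size alone. ATG10, the E2 enzyme of ATG12 (AT3G07525; chromosome 3, 2399123 to 2400437, minus strand), was the one member called lower, at 6.52, 10.5 and 6.88 CPM in REC and 3.73, 2.19 and 2.79 CPM in SEC. Its log2 difference was -1.46 ± 0.49 (SE; edgeR adjusted p = 0.0302), and the call was lost without REC replicate 2 (edgeR adjusted p = 0.111), without SEC replicate 2 (0.0916) and without SEC replicate 3 (0.0637). ATG12A, at 12.6, 7.23 and 10.4 CPM against 15.9, 14.8 and 11.4 CPM, was not called (log2 0.48 ± 0.35, SE; edgeR adjusted p = 0.268). ATG12B had 35, 65 and 34 counts in REC and 6, 20 and 4 in SEC and was not called either (log2 -1.74 ± 0.82, SE; edgeR adjusted p = 0.1). The 2 ATG12 genes together were at 15.4 ± 2.3 CPM per kb in REC and 17.9 ± 3.15 in SEC (SD, n = 3), with overlapping libraries.

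The ATG4 proteases were both called higher (against 28.9% of all tested genes), but part of their exons lies over other genes on the opposite strand. ATG4A (AT2G44140; chromosome 2, 18253497 to 18258035, minus strand) was at 74.7, 62.0 and 63.4 CPM in REC and 1003, 589 and 494 CPM in SEC, a log2 difference of 3.38 ± 0.31 (SE; edgeR adjusted p = 6.55e-05). ATG4B (AT3G59950; chromosome 3, 22144280 to 22147691, minus strand) was at 32.1, 38.7 and 31.2 CPM in REC and 154, 153 and 134 CPM in SEC (log2 2.11 ± 0.20, SE; edgeR adjusted p = 7.45e-05). The neighbour of ATG4A on the opposite strand, the kelch repeat gene AT2G44130, covers 1445 bases or 42.6% of its annotated exons. AT2G44130 itself had a mean of 47.6 ± 8.73 CPM in REC against 586 ± 249 in SEC (SD, n = 3), with a log2 fold change of 3.62 ± 0.35 (SE). ATG4B shares 160 exon bases with another kelch repeat gene, AT3G59940, which was at 105 ± 30.1 and 371 ± 37.1 CPM (SD, n = 3). The strand setting of the counting is not given in the sources used here, so the reads of these genes and of their neighbours cannot be told apart with certainty.

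In all, 13 members overlap a gene on the opposite strand in RefSeq's annotation. In 7 of them, ATG4A, ATG4B, ATG5, ATG8A, ATG10, ATG11 and ATG18C, the neighbour had at least 10% of the member's mean level in one of the groups. In REC and SEC the neighbour was at 71.3% and 84.3% of ATG4A, 308% and 253% of ATG4B, and 42.9% and 62.7% of ATG5. It was at 560% and 239% of ATG8A, 58.1% and 97.5% of ATG10, 96.8% and 51.1% of ATG11, and 178% and 17.6% of ATG18C. AT5G17280 beside ATG5 and AT4G30780 beside ATG11 were themselves higher in SEC, by log2 1.67 ± 0.22 and 2.54 ± 0.24 (SE). They cover 27.6% and 13% of the annotated exons of ATG5 and ATG11. The overlap was 2.86% in ATG8A, 3.66% in ATG18C and 5.69% in ATG10. AT2G40815 beside ATG18C was lower (log2 -1.38 ± 0.50, SE; edgeR adjusted p = 0.0422), the opposite of ATG18C. For ATG9 the neighbour was not analysed here, and for NBR1 it was at 0.431% and 0.228% of the member's level in REC and SEC. Of the 24 tested members with no such overlap, 19 were higher, 0 lower and 5 not called. Over all tested genes, with or without an overlap, 28.9% were higher and 31.9% lower. The shares among genes without an overlap were not computed.

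Of the 9 ATG8 genes 8 were higher in SEC, against 28.9% of all tested genes. The summed level of the 9 per kilobase was higher in every SEC library. The sum was 785, 767 and 1055 CPM per kb in REC and 4169, 3043 and 2784 CPM per kb in SEC, a 3.84-fold difference of means. ATG8H (AT3G06420; chromosome 3, 1954990 to 1956397, minus strand), whose coding sequence ends on the glycine codon, was at 135, 139 and 167 CPM in REC and 1463, 1070 and 1016 CPM in SEC. It rose 8.04-fold, a log2 difference of 3.01 ± 0.24 (SE; edgeR adjusted p = 3.29e-05). ATG8I (AT3G15580), which has the same kind of end, was at 88.0, 85.2 and 95.9 CPM in REC and 273, 217 and 169 CPM in SEC, 2.45-fold higher (log2 1.29 ± 0.23, SE; edgeR adjusted p = 0.00154). The pair shares the kind of end, and the difference between their fold changes was not tested.

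Members with codons after the glycine ranged from log2 1.81 to -0.15. ATG8A was at 91.7, 91.5 and 95.3 CPM in REC and 395, 318 and 266 CPM in SEC (log2 1.81 ± 0.21, SE; edgeR adjusted p = 0.0002). ATG8B was at 50.7, 47.1 and 55.6 CPM in REC and 196, 153 and 127 CPM in SEC (log2 1.63 ± 0.22, SE; edgeR adjusted p = 0.000452). ATG8E, the most abundant member per length in REC, was at 191, 187 and 382 CPM in REC and 858, 527 and 544 CPM in SEC (log2 1.35 ± 0.35, SE; edgeR adjusted p = 0.00985). REC replicate 3 stood above the other REC libraries, and the groups did not overlap. ATG8D went from 34.3, 29.3 and 33.8 to 90.6, 82.1 and 63.1 CPM (log2 1.27 ± 0.22, SE; edgeR adjusted p = 0.00155), and ATG8F from 72.7, 76.6 and 95.1 to 204, 164 and 115 CPM (log2 0.98 ± 0.25, SE; edgeR adjusted p = 0.0103). ATG8C had the smallest called rise of the family, from 43.9, 53.1 and 45.9 to 90.8, 89.1 and 66.6 CPM (log2 0.79 ± 0.21, SE; edgeR adjusted p = 0.0129), and its call was lost without SEC replicate 1 (0.0587) or SEC replicate 2 (0.0743). ATG8G, at 52.7, 30.1 and 38.5 CPM in REC and 46.5, 37.9 and 24.5 CPM in SEC, overlapped between the groups and was not called (log2 -0.15 ± 0.32, SE; edgeR adjusted p = 0.695). With library size alone the calls of ATG8C, ATG8E and ATG8F were lost, with adjusted p of 0.382, 0.062 and 0.165.

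The make-up of the ATG8 transcripts needs no scaling between libraries. Per kilobase of exon ATG8H held 24.2%, 25.6% and 22.2% of the family in REC and 49.3%, 49.4% and 51.2% in SEC. These ranges did not overlap. ATG8E held 26.5%, 26.7% and 39.5% in REC and 20.9% ± 1.82 in SEC, and ATG8G 4.26% ± 1.52 and 0.967% ± 0.165 (SD, n = 3). The share of ATG8H was 26.0 percentage points higher in SEC. An exact two-sided permutation test gave p = 0.1, the smallest that 3 libraries against 3 allow, so the test cannot pass 0.05 and the shares are a description. Of the other 8 genes, 7 had a smaller share in every SEC library than in any REC library, and ATG8A overlapped. The shares add up to a fixed total, so a larger share of ATG8H leaves less for the others. In level, all of those others except ATG8G were called higher in SEC. As a plain share of ATG8 counts, with no division by length, ATG8H held 17.8%, 18.8% and 16.5% in REC and 40.4%, 40.3% and 42.5% in SEC. The closest pair of ATG8 coding sequences, ATG8E and ATG8G, was 78.3% identical over the longer of the 2, and reads that aligned to several sites were not counted.

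**Figure D3:**
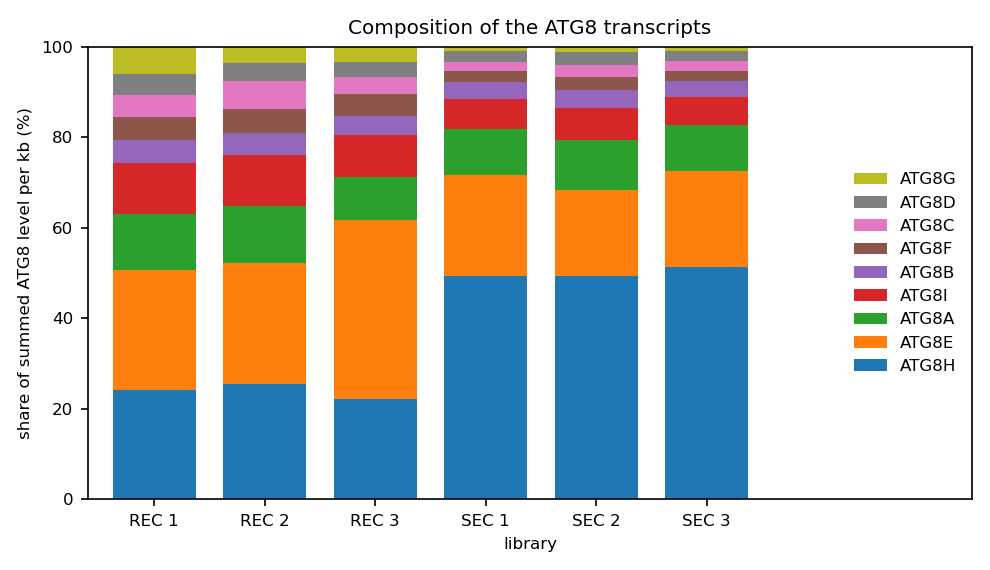
Each bar is 1 library and each colour the share, in percent, of an ATG8 gene in the summed ATG8 level per kilobase of exon. ATG8H, at the bottom, takes 22.2% to 25.6% in the REC libraries and 49.3% to 51.2% in the SEC libraries.

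NBR1, the receptor that brings ubiquitinated cargo to ATG8 and is itself degraded with it, was among the most abundant members. NBR1 (AT4G24690; chromosome 4, 12741033 to 12744533, plus strand) was at 217, 258 and 251 CPM in REC and 1722, 1496 and 1266 CPM in SEC. The groups did not overlap, and the log2 difference was 2.63 ± 0.21 (SE; edgeR adjusted p = 3.81e-05). Transcript counts do not show the amount of NBR1 protein.

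Levels can be compared between genes only per length of exon. In REC the highest members were ATG8E at 277, ATG8H at 207, ATG8A at 98.2, ATG8I at 90.4 and NBR1 at 88.2 CPM per kb. ATG8H was first in SEC, at 1662 CPM per kb, followed by ATG8E at 703, NBR1 at 545, ATG8A at 345 and ATG8I at 222. The same 5 genes thus led in both groups, in another order. ATG3 moved from place 6 to place 12 of the 38 and ATG8G from 11 to 24, while ATG9 moved from 33 to 17 and ATG13A from 15 to 7. ATG2, the lowest tested gene in REC at 1.45 CPM per kb, reached 14.3 in SEC, and the lowest tested in SEC were ATG13B at 0.505 and ATG12B at 0.959 CPM per kb.

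**Figure D4:**
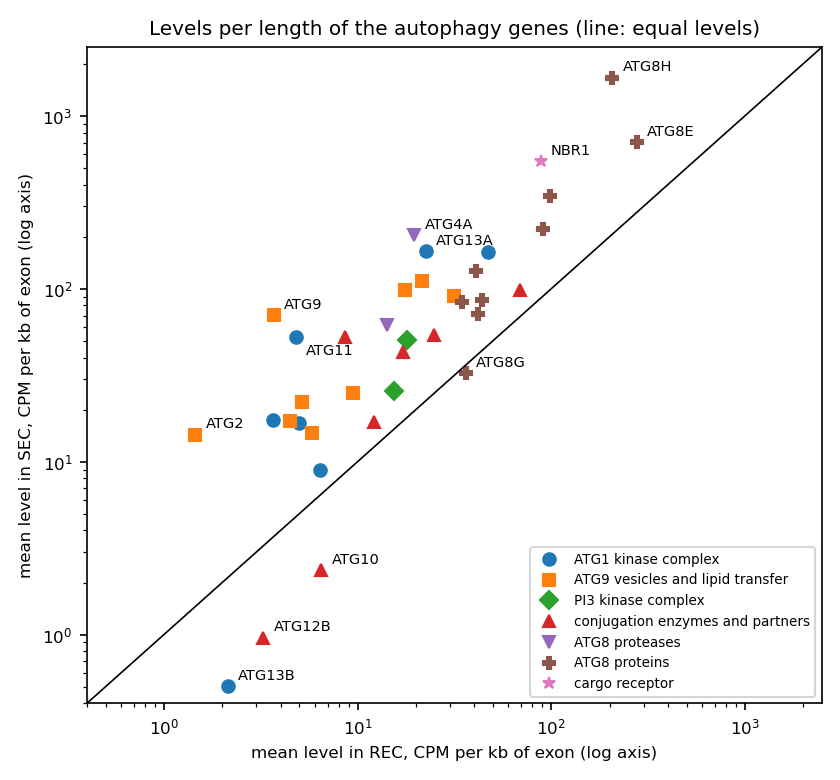
Both axes are mean levels of 3 libraries in CPM per kilobase of exon on log scales, REC on x and SEC on y, for the 37 members above 0 in both groups, and the line marks equal levels. ATG8H lies at 207 and 1662, and the points below the line are ATG8G, ATG10, ATG12B and ATG13B.

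Partners of the machinery outside the 38 genes were mostly higher as well. Of 15 listed genes (other parts of the lipid kinase complex, ATG8-binding proteins, receptors and membrane factors) 14 could be tested: 10 were higher, 0 lower and 4 uncalled, and their median log2 fold change was 1.06, against -0.07 over all genes. Calls over all tested genes were 28.9% higher and 31.9% lower. For 7 of the 15 loci, 4 of them among the higher genes, RefSeq does not give the name under which they were listed, so their place in the pathway is uncertain. Of the other 8, 7 could be tested, and 6 were higher and 1 was uncalled. EXO70B1 (AT5G58430), an exocyst subunit with a part in autophagy, was at 92.4, 106 and 83.3 CPM in REC and 394, 409 and 445 CPM in SEC, 4.44-fold higher (edgeR adjusted p = 6.07e-05). AT3G43230, annotated as a FYVE-type zinc finger protein, rose 4.16-fold (edgeR adjusted p = 0.000126), and AT1G77890, annotated only as an RNA polymerase II protein, rose 5.05-fold (edgeR adjusted p = 0.000266). VPS15, the kinase that holds VPS34, had a mean of 18.0 ± 7.72 CPM in REC against 37.8 ± 6.58 in SEC (SD, n = 3; edgeR adjusted p = 0.0284).

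The kinase TOR acts as a brake on autophagy and the kinase SnRK1 as a driver. Transcripts of some of their subunits and partners differed between the groups, as did those of most genes tested. Of 14 listed genes 13 could be tested: 8 were higher, 1 lower and 4 uncalled, and their median log2 fold change was 0.83. Over all tested genes 28.9% were higher, 31.9% lower and 60.8% called in either direction. Without REC replicate 3, 7 were higher and 1 lower. TOR itself was at 44.3 ± 12.0 and 66.2 ± 14.6 CPM and the SnRK1 catalytic gene KIN10 at 119 ± 20.3 and 143 ± 9.36 CPM (SD, n = 3), and neither was called (edgeR adjusted p = 0.107 and 0.293). KIN11 (AT3G29160), the other SnRK1 catalytic gene listed, was called higher (log2 0.54 ± 0.20, SE; edgeR adjusted p = 0.0491). Its call was lost without REC replicate 3 (0.0527). Of the TOR partners, RAPTOR1 and RAPTOR2 were called higher (edgeR adjusted p = 0.00839 and 0.0116) and LST8-1 was not called (0.586). S6K2 (AT3G08720), a kinase downstream of TOR, rose from 25.9, 31.4 and 17.1 to 199, 176 and 224 CPM (log2 3.01 ± 0.27, SE; edgeR adjusted p = 6.16e-05). S6K1 (AT3G08730), listed with it, was at 80.4, 89.7 and 14.4 CPM in REC and 117, 127 and 122 CPM in SEC. It was not called (edgeR adjusted p = 0.155). Without REC replicate 3 S6K1 was called higher, with a log2 fold change of 0.53 (edgeR adjusted p = 0.0352). Of the SnRK1 beta subunits, KINB1 and KINB3 were higher and KINB2 was lower. KINB2 (AT4G16360) fell from 72.8, 73.9 and 73.3 to 7.01, 10.3 and 12.3 CPM (log2 -2.90 ± 0.27, SE; edgeR adjusted p = 7.45e-05), while KINB1 (AT5G21170) rose from 14.1, 21.9 and 25.7 to 71.8, 57.9 and 58.6 CPM (log2 1.61 ± 0.28, SE; edgeR adjusted p = 0.00156). KINB3 (AT2G28060) had means of 19.2 ± 2.07 CPM in REC against 34.3 ± 2.11 in SEC (SD, n = 3; edgeR adjusted p = 0.0163).

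Upstream sequences of the members were searched for the letters bound by some of the regulators that have been linked to ATG genes. The bases before the RefSeq gene start, 250 for each gene, were read on both strands for TGACG (the core of TGA factor sites), CACGTG (the G-box), and TTGACC and TTGACT (W-box forms), none of which contains another, though neighbouring matches may share letters. TGACG was present in 10 of 38 members (26.3%) and in 18.6% of 27443 protein-coding genes, CACGTG in 3 members (7.9% against 6.5%), TTGACC in 2 (5.3% against 12.2%) and TTGACT in 4 (10.5% against 19.1%). TGACG stood before 6 of the 9 ATG8 genes, ATG8A, ATG8E, ATG8F, ATG8G, ATG8H and ATG8I, among them the gene with the largest rise of the family and the one that was not called. The windows of the pair that end on the glycine are shown, on TAIR10.1 and the minus strand, with the motif matches in capitals, at chr3:1956398-1956647 for ATG8H and chr3:5275096-5275345 for ATG8I.
ATG8H: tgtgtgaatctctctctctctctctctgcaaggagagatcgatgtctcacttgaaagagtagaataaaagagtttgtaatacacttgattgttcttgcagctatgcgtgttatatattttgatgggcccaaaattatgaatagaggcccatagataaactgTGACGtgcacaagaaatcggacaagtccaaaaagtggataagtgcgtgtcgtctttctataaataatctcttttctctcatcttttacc
ATG8I: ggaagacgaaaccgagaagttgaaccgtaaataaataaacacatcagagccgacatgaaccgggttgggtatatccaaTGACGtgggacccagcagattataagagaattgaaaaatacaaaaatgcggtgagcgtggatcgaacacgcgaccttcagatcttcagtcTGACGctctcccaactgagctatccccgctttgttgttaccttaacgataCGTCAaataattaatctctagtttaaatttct
The window of ATG8H holds 1 match and that of ATG8I 3. The windows were not checked for other genes lying in them, and binding at the matches was not tested. Of 5 listed factors, 3 were higher in SEC and 1 was lower, against 28.9% and 31.9% of all tested genes. The list and the motifs are not matched, and no heat shock factor site was searched. WRKY33 (AT2G38470), a W-box factor, rose from 129, 200 and 135 to 911, 1007 and 989 CPM (log2 2.65 ± 0.24, SE; edgeR adjusted p = 6.07e-05), the heat shock factor gene HSFA1A (AT4G17750) from 3.14, 4.14 and 2.70 to 17.1, 16.8 and 15.0 CPM, and HY5 (AT5G11260), a light-signalling factor, fell from 40.0 ± 5.51 to 11.9 ± 3.75 CPM (SD, n = 3). TGA9 (AT1G08320), named after its values were seen, had 0 counts in REC and 2.84, 2.46 and 2.23 CPM in SEC, at least 43.2-fold higher against 3 counts over the group.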

How the data were processed

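The authors deposited unnormalized counts per gene for 6 libraries. The submitters' processing notes name HTSeq 0.6.1, TopHat2 2.0.9, Trimmomatic 0.32.3, Picard 1.119, FastQC 0.11.2, bcl2fastq 1.8.4 and DESeq2, and the build TAIR10. Strand setting, annotation release and any duplicate removal are unstated there. The 5 summary rows of the counter stayed out of library sizes and tests. They held, of all records, 42.8% to 45.9% in no feature, 6.86% to 11.8% at more than 1 site and 0.41% to 0.537% ambiguous. Amplified reads are not independent molecules, so floors cover counting error only, and the labels do not say that replicates are separate plants, so p-values measure only the spread among these libraries, which could be technical.

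Tests were run with edgeR 4.0.16 under R 4.3.3 (filterByExpr by group, TMM, quasi-likelihood F test, Benjamini-Hochberg over 17246 genes), with limma 3.58.1 and DESeq2 1.42.0 as alternatives. Standard errors are the size of the log2 difference over the square root of F. Coordinates are those of the table on TAIR10, with starts counted from 1. Exon lengths, strands, overlaps and sequences are from RefSeq's TAIR10.1, which matched 32835 genes by locus and may differ from the annotation that was counted. Values in every library are given for called members and all ATG8 genes (as ranges for 2), and the 3 called genes with the smallest adjusted p are named per pathway list. TOR, KIN10, KIN11, RAPTOR1, RAPTOR2, LST8-1, S6K1, KINB3, VPS15, TGA9, SEN1, BGLU30, RD19A, AALP and the markers named with values fall outside that rule and were chosen after their values were seen. The members and lists were chosen with earlier results of these data known.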

Additional observations from a re-analysis of the deposited data

How the results depend on the processing

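Of the 30 members called higher, 26 kept direction and call in every alternative run for them (other scalings, filters and tests, the replicate block, a threshold of 0.01 and each library left out), and the other 4, ATG8C, ATG8E, ATG8F and VPS34, lost the call in at least 1. The number higher was 30 with RLE scaling, 28 with upper-quartile scaling, 26 with library size alone, 29 with no filter, 29 with at least 10 CPM in 3 libraries, 31 with DESeq2, 31 with limma voom and quality weights, 29 with the replicate block, 27 at 0.01 and 28 to 30 with a library left out. It was 19 of 24 tested when members over an opposite-strand gene were left out, an alternative added after the data were seen, with 0 lower. Over all tested genes, with or without an overlap, the shares were 28.9% higher and 31.9% lower. The number lower, 1, became 2 with library size alone, 0 with at least 10 CPM in 3 libraries, 0 with the replicate block, 0 at 0.01 and 0 to 2 with a library left out. The 6 changes of sign were all in members that were not called. ATG1C, ATG3 and ATG12A had log2 fold changes of -0.080, -0.050 and -0.063 with library size alone, ATG13B 0.085 with limma voom, and ATG8G 0.082 without REC replicate 1 and 0.049 without SEC replicate 3, in a range from -0.38 to 0.082 with a library left out. The causes were not tested. Over all genes, 3521 to 5791 were higher and 4168 to 6925 lower over these alternatives, against 4978 and 5499.

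No shared deviation was seen between libraries of the same replicate number: deviations from the group means correlated at -0.0218, -0.0101 and -0.016 between REC and SEC libraries of the same number. These correlations cannot show whether such libraries were collected together. With the replicate block 4644 genes were higher and 4871 lower, and among the members ATG10 and VPS34 were no longer called. Counts per library were lowest for ATG18E, ATG12B and ATG13B, at 0 to 31, 4 to 65 and 0 to 181, and those of ATG13B and ATG18E differed between REC libraries of similar depth. The cause was not tested. List counts without REC replicate 3 were added after the data were seen.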

Other observations

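Genes known to respond to sugar starvation were mostly higher in SEC. Of 11 listed, 10 were higher (against 28.9% of all tested genes), 0 lower (against 31.9%) and 1 uncalled. Their median log2 fold change was 2.21, and the summed level was 453 to 750 CPM in REC and 3390 to 4048 CPM in SEC. The trehalose phosphate synthase genes TPS11 (AT2G18700) and TPS8 (AT1G70290) rose 5.9-fold and 9.58-fold (edgeR adjusted p = 3.87e-05 and 4.89e-05), and TPS9 (AT1G23870), of the same family, rose from 28.0, 20.8 and 29.0 to 91.1, 111 and 157 CPM, 4.62-fold (edgeR adjusted p = 0.000275). SEN1 (AT4G35770) was not called, at 2.96, 3.86 and 47.9 CPM in REC and 31.5, 11.9 and 14.0 CPM in SEC. REC replicate 3 stood apart in SEN1 and in BGLU30 (AT3G60140), which was at 0, 0 and 19.5 CPM in REC and 704 to 1090 CPM in SEC. Without that library all 11 genes of the list were called higher, SEN1 with a log2 fold change of 2.49 (edgeR adjusted p = 0.00603).

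Vacuolar proteases, which degrade what autophagy delivers, were higher in 7 and lower in 1 of the 11 tested of 13 listed. Over all tested genes 28.9% were higher, 31.9% lower and 60.8% called in either direction. The median log2 fold change of the proteases was 2.02. The cysteine protease genes RD21A (AT1G47128) and AT1G02305 rose 4.06-fold and 2.4-fold (edgeR adjusted p = 0.000232 and 0.00081). SAG12 (AT5G45890), a marker of senescence, had 0 counts in REC and 22.0, 21.6 and 15.3 CPM in SEC, at least 338-fold higher against 3 counts over the group. RD19A (AT4G39090) was at 76.3, 63.8 and 493 CPM in REC and 1717 to 1909 CPM in SEC, and without REC replicate 3 the list had 8 higher and 1 lower. AALP (AT5G60360), the aleurain-like protease, fell from 556 ± 49.1 to 317 ± 49.0 CPM (SD, n = 3; edgeR adjusted p = 0.0083).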
